A study of Homo sapiens with 8 samples.

Results

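The NF-kB pathway and its feedback genes were examined as 34 genes of the 18564 in the gene table of LP-1 myeloma cells. The genes were chosen by symbol: the NF-kB subunits, their inhibitors, the kinases, TRAF and BIRC regulators upstream of them, and the receptors, ligands and adaptor of canonical and noncanonical signalling. The rule uses symbols and no measured value. LP-1 is a human multiple myeloma cell line, compared here as wild-type (WT) cells and as a bortezomib-resistant (BR) line that had been grown with the proteasome inhibitor bortezomib for 2 months. Both were cultured in the same serum-containing medium and received vehicle or 25 nM SI-2, an inhibitor of the steroid receptor coactivator SRC-3, for 24 h. The 4 conditions, WT vehicle, WT SI-2, BR vehicle and BR SI-2, had 2 libraries each, 8 in all. The labels called the WT vehicle cells untreated in one field and DMSO-treated in another, and did not state whether bortezomib was present in the BR cells at harvest. The BR cells are 1 derived line, so BR against WT compares that line with its parent. The sample labels did not state whether the replicates came from separate cultures. The paper describes the experiments behind its expression heat map of BR cells as biologically independent, and that legend does not cover WT cells. How the cultures of each library were kept apart was not described, so the p-values are read as measuring only the spread between these libraries.

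NF-kB is a family of dimeric transcription factors held inactive by IkB proteins. In the canonical route, the IkB kinase complex marks IkB for destruction by the proteasome and frees dimers of the RELA, REL and NFKB1 type, whereas in the noncanonical route the kinase NIK, encoded by MAP3K14, drives processing of the NFKB2 product and frees dimers with RELB. Many target genes of the pathway, among them NFKBIA, TNFAIP3, BIRC3, NFKB2 and RELB, encode its own inhibitors or subunits, and this feedback makes their mRNA a common readout of pathway activity. Myeloma cells often depend on NF-kB, through ligands of the marrow such as BAFF and APRIL or through lesions in TRAF3, CYLD or the BIRC genes.

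The libraries held 17997771 to 18570027 estimated counts each. Plasma cell markers had a summed count of 117670 to 162612 over 9 genes, but unevenly. JCHAIN alone held 62550 to 98496 counts, SDC1 had 301 to 688 and SLAMF7 only 15 to 28, and the others lay between SDC1 and JCHAIN. The 5 B cell markers summed to 6 to 14 counts (3 of the 5 had at most 3 counts in every library), the 2 T cell markers in the table to 0 to 6 and the 3 monocyte and macrophage markers to 93 to 142. One library stood apart: BR SI-2 replicate 2 held 2173 counts over the 3 fibroblast and stroma markers, namely COL1A1 (1032 counts), COL3A1 (998) and DCN (143), against 3 to 9 in the other 7 libraries. LTBR, the lymphotoxin beta receptor, moved with them. It had 22 counts in BR SI-2 replicate 2, 1 count in WT vehicle replicate 1 and 0 in the other 6 libraries, where 0 counts allow up to 3 per library. LTBR was the 1 member of the list that did not pass the filter on low counts, and the other 33 were tested. In a bulk sample, fewer cells of a type and less RNA per cell cannot be told apart, and the part of these fibroblast transcripts in the members' values was not tested. For comparisons that use BR SI-2 replicate 2, the split of the 33 genes into higher and lower is given with and without this library. Estimates that it moved most are given both ways too.

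**Figure D1:**
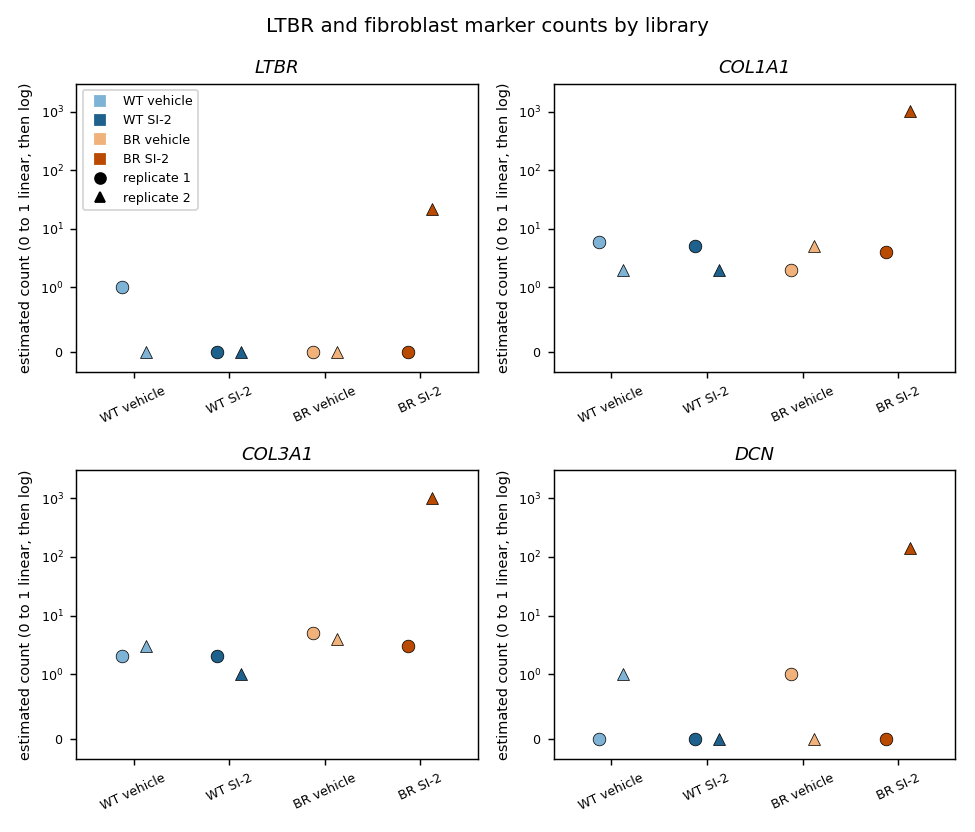
Estimated read counts of LTBR and of 3 fibroblast markers in each library, by condition, on a scale that is linear from 0 to 1 and logarithmic above. The 7 other libraries hold 0 or 1 count of LTBR and at most 6 of each marker, and BR SI-2 replicate 2 holds 22 and 143 to 1032.

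The pathway was transcribed at widely different levels from gene to gene. On the FPKM scale, which divides by gene length and library size, TNFRSF13B (gene identifier 23495) was the most abundant member. It encodes TACI, a receptor for BAFF and APRIL, and had a mean of 114 ± 28.2 FPKM (SD, n = 8), above 96.9% of all genes. NFKB2 followed with 82.9 ± 13.8 FPKM, TNFAIP3, the ubiquitin-editing inhibitor A20, with 82.7 ± 18.4 and its partner TNIP1 with 79.5 ± 7.30. The ranges of neighbours in this order overlapped for 31 of the 33 adjacent pairs. The gaps lay between TNIP1 and RELA, and between TRAF6 and NFKBIZ.

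All 5 subunits were present. RELA had 48.7 ± 3.17 FPKM, RELB 41.9 ± 10.0, REL 20.04 ± 4.09 and NFKB1, which encodes the p105 precursor of p50, 15.5 ± 1.33. Among the inhibitors, NFKBIA (IkB alpha) had 38.2 ± 5.71 FPKM, BCL3, an atypical IkB that acts in the nucleus, 20.9 ± 5.97, and the deubiquitinase CYLD 20.1 ± 3.71. NFKBIB ran from 12.6 to 20.3 FPKM over the 8 libraries, NFKBIE from 5.30 to 9.88 and NFKBIZ from 3.00 to 5.33. These levels placed the noncanonical subunits above NFKB1 and REL in mRNA, with every NFKB2 library above every library of the other 4 subunits.

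The kinase group was intermediate. IKBKB, CHUK and IKBKG, which encode the catalytic and regulatory parts of the IkB kinase complex, had 24.1 ± 2.84, 16.4 ± 1.80 and 20.8 ± 3.33 FPKM. IKBKE ran from 7.14 to 17.8 FPKM, MAP3K7 (TAK1) from 7.40 to 12.7, its adaptor TAB2 from 6.07 to 9.28, RIPK1 from 7.44 to 10.3 and MAP3K14 from 5.77 to 8. IKBKG has a near-identical pseudogene copy, so its count is uncertain. BIRC3 and BIRC2, the cIAP ubiquitin ligases, had 36.1 ± 8.20 and 21.2 ± 2.92 FPKM, against 12.6 ± 1.18 for TRAF2 and 3.54 ± 0.631 for TRAF3, with which they form the complex that keeps NIK low. TRAF6 ran from 5.54 to 6.92 FPKM and TRAF1 from 0.860 to 1.93.

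Apart from TACI, the receptors and ligands among the 34 genes were sparse. TNFRSF17, which encodes the related receptor BCMA and is not a member, had a mean of 283 FPKM, and the TNF family ligand gene CD70, also outside the list, had 40.2 FPKM. The adaptor MYD88 had 9.87 ± 0.763 FPKM and TNFRSF13C, the BAFF receptor, 2.70 ± 0.689. CD40 had 0.718 ± 0.204 FPKM, TNFSF13B, which encodes BAFF, 0.405 ± 0.118 and TNFSF13, which encodes APRIL, 0.383 ± 0.193. TNFSF13 lies in a read-through locus with its neighbour, and its low count is uncertain for that reason too.

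**Figure D2:**
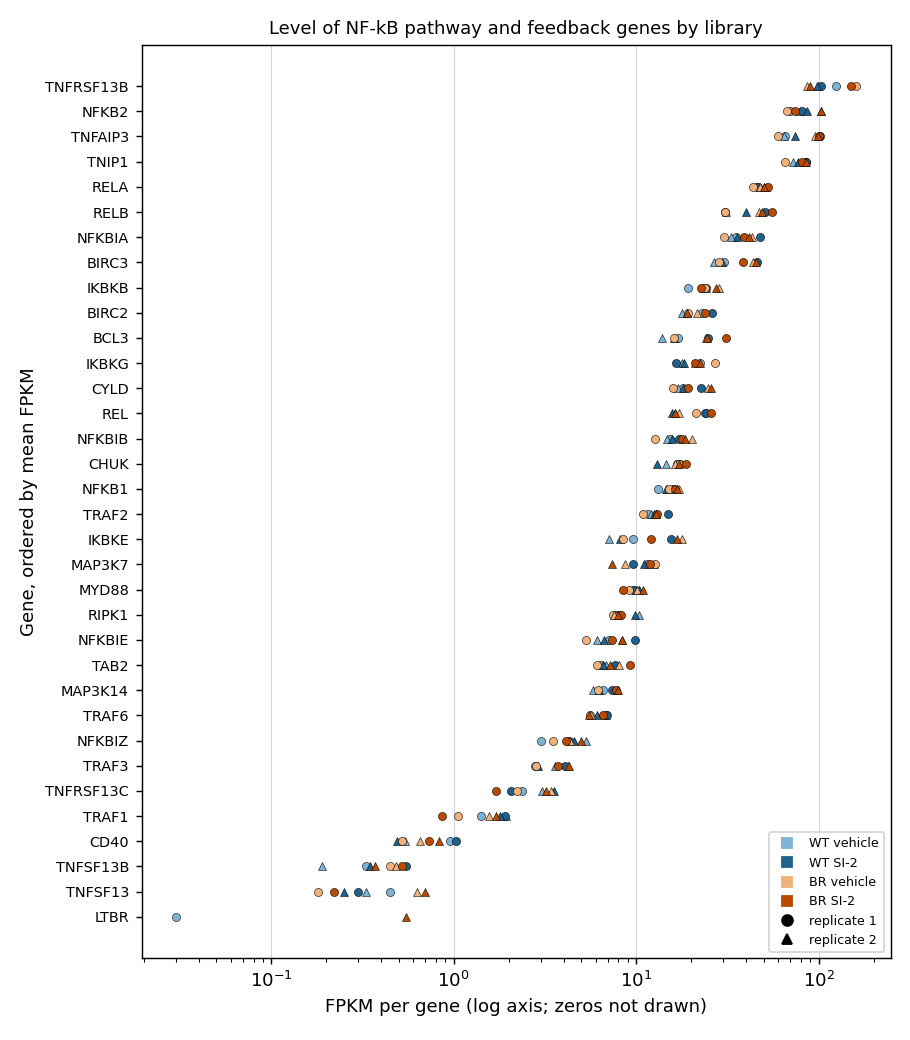
FPKM of the 34 genes (log axis) in each library, ordered by mean; colours give the condition and symbols the replicate number, and values of 0 are not drawn. Means run from 0.0725 FPKM for LTBR to 114 for TNFRSF13B, and the 8 libraries of most genes lie close together on this scale.

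The promoters of the feedback genes are where NF-kB is known to act, so the RefSeq promoter windows (GRCh38.p14, 250 bases before to 50 after the annotated start) were searched on both strands for the 10-base kB consensus motif. Windows of 29 of the 34 genes were searched, and those of RELB, NFKBIE, IKBKB, CD40 and TNFRSF13C were not analysed here. The motif was found for 14 of the 29 genes (48.3%), against 7.09% of all 27305 genes with a window, and in 34.7% of the members' 49 windows against 5.91% of all 35116. The list holds known NF-kB targets by its choice, and a match is a description of the letters, not of binding. Representative stretches with the motif before the start are shown for a subunit gene of each route, for REL and for the inhibitors and regulators described below. They run 5′ to 3′ on the gene's strand, with the matched bases in capitals. Overlapping matches are merged.
NFKB1, 49 bases before the start, chr4:102501300-102501329, plus strand: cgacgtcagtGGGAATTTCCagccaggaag
NFKB2, 21 bases before one of its starts, chr10:102395674-102395703, plus strand: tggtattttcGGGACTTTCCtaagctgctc
REL, 47 bases before the start, chr2:60881517-60881547, plus strand: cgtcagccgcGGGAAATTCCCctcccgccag
NFKBIA, 81 bases before the start, chr14:35404811-35404840, minus strand: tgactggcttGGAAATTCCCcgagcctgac
TNFAIP3, 67 bases before the start and holding a pair of matches, chr6:137867182-137867223, plus strand: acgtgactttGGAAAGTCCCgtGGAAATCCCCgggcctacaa
BIRC3, 199 bases before the start, chr11:102317275-102317304, plus strand: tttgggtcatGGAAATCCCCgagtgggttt
BIRC3, 135 bases before the start, chr11:102317339-102317368, plus strand: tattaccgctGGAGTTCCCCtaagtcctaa
TRAF3, 33 bases before the start, chr14:102777406-102777435, plus strand: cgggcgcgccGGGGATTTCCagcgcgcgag
The distance is that of the first matched base. The other members with a match were NFKBIB, NFKBIZ, BCL3, TNIP1, CYLD, TAB2 and TNFSF13. None was found in the windows of RELA, MAP3K14, MAP3K7, CHUK, IKBKG, IKBKE, RIPK1, TRAF1, TRAF2, TRAF6, BIRC2, LTBR, TNFRSF13B, TNFSF13B and MYD88, which says only that these letters are not in these windows.

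Libraries of the same condition differed from each other in these genes. The 2 BR vehicle libraries differed most: 27 of the 33 tested genes were higher in replicate 2 than in replicate 1, with a median log2 difference of 0.26. The median size of the difference was 0.405 for these genes. For all genes tested it was 0.239, but with a small constant added to every value before the logarithm. That constant shrinks the differences of sparse genes, so the 2 medians are not on the same scale. In the WT SI-2 pair, 25 of 33 were higher in replicate 1, with a median log2 difference, replicate 2 over replicate 1, of -0.195. WT vehicle and BR SI-2 libraries were more balanced, with 14 genes higher in replicate 2 and 19 higher in replicate 1 in each.

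The wider differences in the BR vehicle pair included several inhibitors and regulators. IKBKE read 32.2 and 23.9 CPM in WT cells with vehicle and 50.5 and 27.4 with SI-2, and 28.6 and 56.6 in BR cells with vehicle and 40.5 and 51.9 with SI-2, where each pair of values gives replicate 1 and then replicate 2, in CPM, the count scaled to library size with the TMM factor. BIRC3 read 217 and 189.8 CPM in WT cells with vehicle and 319.6 and 209.8 with SI-2, and 204 and 297 in BR cells with vehicle and 272 and 299.9 with SI-2. In both genes WT SI-2 replicate 1 and BR vehicle replicate 2 were high and their partner libraries low, and the 2 BR SI-2 libraries lay in the upper part of the range. The log2 difference within the BR vehicle pair was 0.58 for TNFAIP3, 0.66 for CYLD, 0.58 for NFKBIE, 0.54 for BIRC3, 0.54 for RELB and 0.53 for NFKB2, all higher in replicate 2. MAP3K7 went the other way in that pair, at -0.64, as did TNFRSF13B at -0.98.

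**Figure D3:**
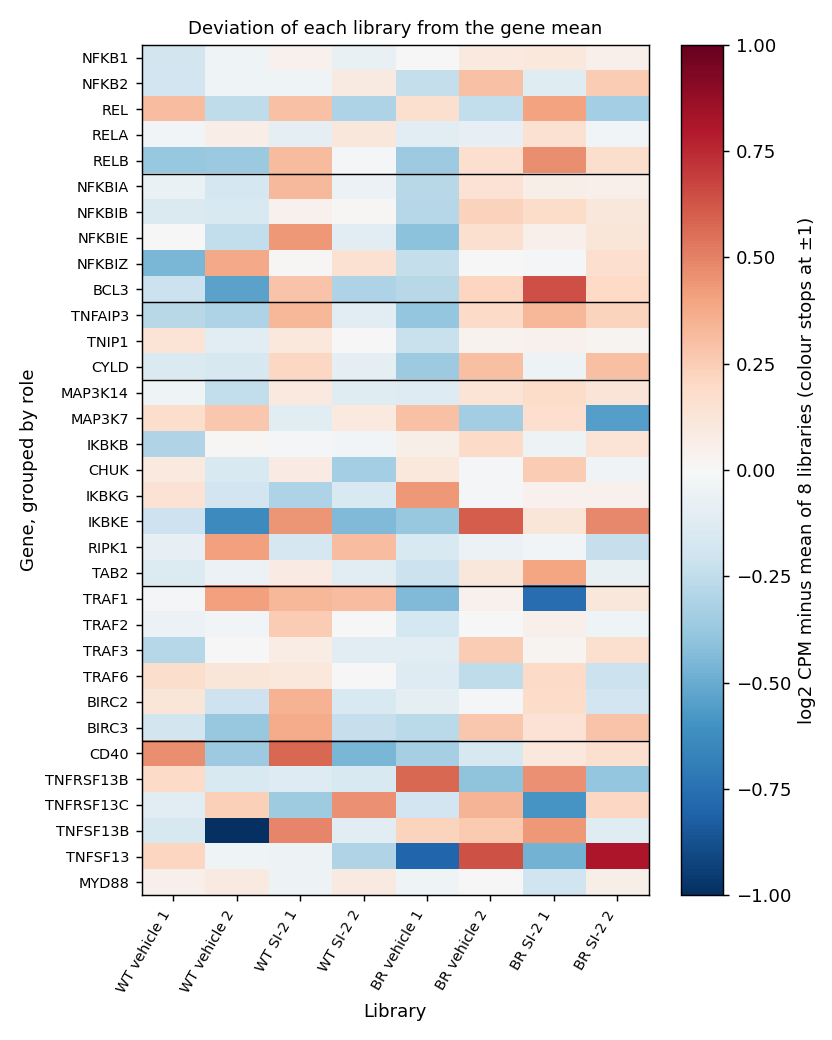
Colour gives each library's log2 CPM minus the mean of the 8 libraries for the 33 tested genes, with black lines between role groups, from the subunits at the top to the receptors, ligands and adaptor at the bottom. Among the inhibitors, WT SI-2 replicate 1 and BR vehicle replicate 2 are mostly above the mean, while their partner libraries are mostly below or near it.

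BR cells were first compared with WT cells over the 4 libraries of each, to see whether the pathway differed in the resistant line. None of the 33 genes passed an adjusted p of 0.05 (edgeR quasi-likelihood F-test with Benjamini-Hochberg adjustment over 13520 genes), against 0.362% of all genes tested, and DESeq2 and limma also called 0 members. One gene, TRAF1, had an unadjusted p under 0.05, which was 3.03% of the members against 14.4% of all genes. In 18 genes the BR estimate was the higher and in 15 the lower, and the median log2 difference was 0.117 beside 0.00416 for all genes. Without BR SI-2 replicate 2 the split was also 18 and 15, and the median was 0.043. Without WT SI-2 replicate 1 the split was 23 and 10, and the median was 0.162.

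TRAF1 (gene identifier 7185), an NF-kB-induced adaptor of TNF receptors, read 6.48 and 8.74 CPM in WT cells with vehicle and 8.30 and 8.17 with SI-2, and 4.86 and 6.79 in BR cells with vehicle and 3.89 and 7.13 with SI-2. The WT mean was 7.92 ± 0.992 CPM and the BR mean 5.67 ± 1.55 (SD, n = 4 each). BR vehicle replicate 1 and BR SI-2 replicate 1 were the lowest, and the other BR libraries lay within the WT range. The log2 fold change was -0.48 (SE 0.20, unadjusted p = 0.0366, edgeR adjusted p = 0.32). Without BR SI-2 replicate 2 it was -0.61, on the log2(FPKM + 1) scale of limma it was -0.28, and over all alternatives the adjusted p ran from 0.13 to 0.651.

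IKBKE (gene identifier 9641), a kinase related to the IkB kinases, had the highest estimate of the 33 genes at 0.41 (SE 0.25, edgeR adjusted p = 0.489), with a WT mean of 33.5 ± 11.9 CPM and a BR mean of 44.4 ± 12.5. WT SI-2 replicate 1 lay above BR vehicle replicate 1 and BR SI-2 replicate 1, so the groups overlapped. The estimate was 0.68 without WT SI-2 replicate 1, and 0.27 without BR vehicle replicate 2 and 0.28 without WT vehicle replicate 2. No member had all 4 BR libraries above or all 4 below the WT libraries, a pattern met in 3.78% of all genes for higher and 4.36% for lower. By role, the median log2 fold change was 0.11 for the subunits, 0.15 for the kinases, 0.12 for the feedback inhibitors, -0.02 for the IkB family with BCL3, -0.08 for the TRAF and BIRC regulators and 0.05 for the 6 tested receptors, ligands and adaptor.

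**Figure D4:**
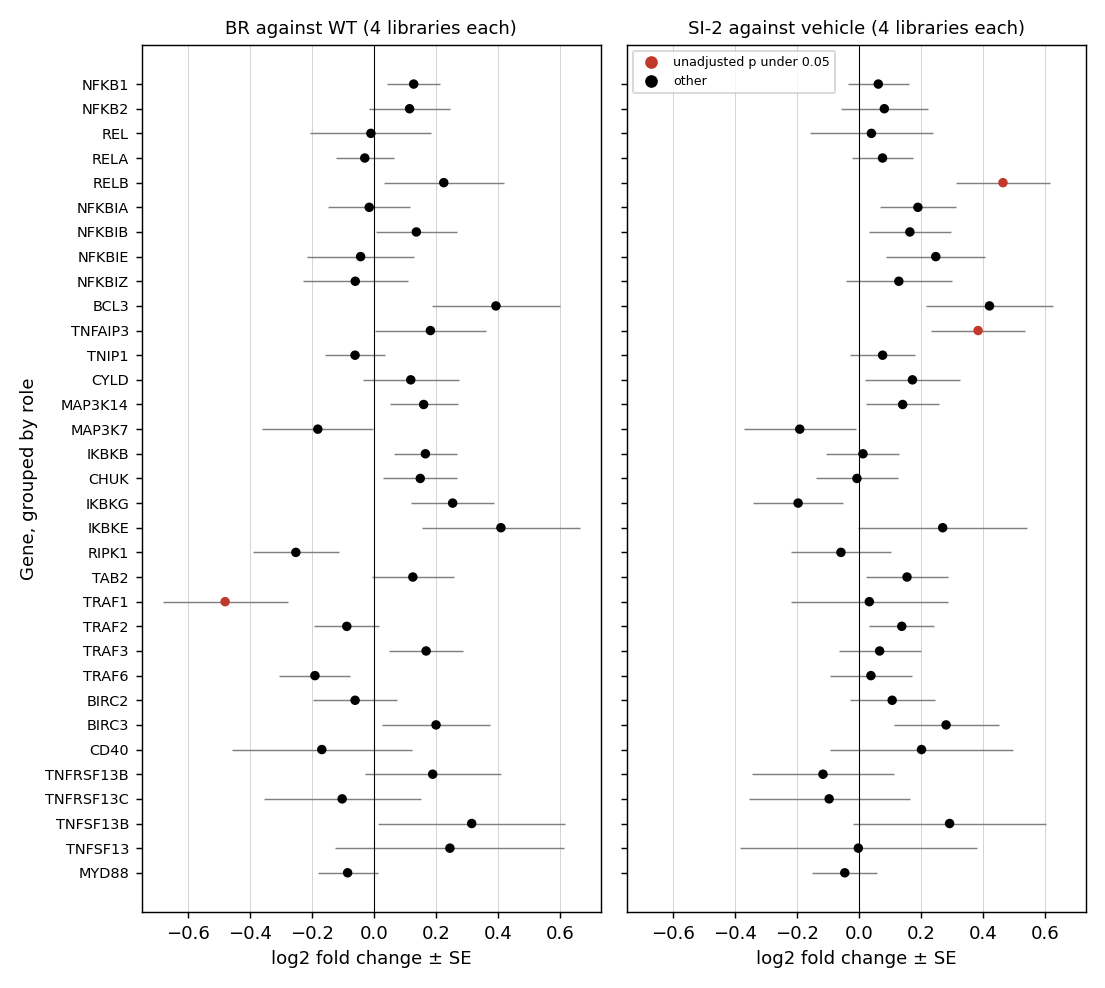
Points give the log2 fold change of each tested gene and bars its standard error, for BR against WT (left) and SI-2 against vehicle (right), 4 libraries on each side; red marks an unadjusted p under 0.05. TRAF1 is marked on the left at -0.48, RELB (0.46) and TNFAIP3 (0.38) are marked on the right, and no gene passed the adjusted threshold.

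The line difference was then split by treatment. Between the vehicle conditions, 0 members were called, 0 of them had an unadjusted p under 0.05 and 21 of 33 had the higher estimate in BR cells, while 0% of the 13896 genes were called and 3.89% had an unadjusted p under 0.05. DESeq2 and limma called 0 members here as well. The split rested on 1 library: without BR vehicle replicate 2, 14 genes were higher and 20 lower in BR cells (LTBR passed the filter on low counts in this fit and in the other counts that sum to 34), and the median log2 difference was -0.117 in place of 0.0676. The highest estimate among members with a mean of at least 1 CPM was that of TNFSF13B, with a log2 fold change of 0.77 (SE 0.45, edgeR adjusted p = 0.967). This BAFF gene was at the edge of detection and read 0.910 and 0.498 CPM in WT cells with vehicle and 1.43 and 0.945 with SI-2, and 1.19 and 1.22 in BR cells with vehicle and 1.37 and 0.936 with SI-2. WT vehicle replicate 2 was the low library, and without it the estimate was 0.41, whereas without WT vehicle replicate 1 it was 1.27, and on the log2(FPKM + 1) scale of limma it was 0.22. TRAF1 was the lowest at -0.38 (SE 0.32, edgeR adjusted p = 0.967). With 1 of the 4 vehicle libraries left out it ran from -0.65 without BR vehicle replicate 2 to -0.15 without BR vehicle replicate 1 and -0.14 without WT vehicle replicate 2, and it was -0.21 on the log2(FPKM + 1) scale.

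Under SI-2, BR against WT again called 0 members by edgeR, DESeq2 and limma, with 0 at an unadjusted p under 0.05, beside 0.0072% of all genes called and 4.09% at an unadjusted p under 0.05. In 19 of 33 genes the BR estimate was the higher, also without BR SI-2 replicate 2. Without WT SI-2 replicate 1 the split was 25 higher and 9 lower, with a median log2 difference of 0.187. Without WT SI-2 replicate 2 it was 18 and 16, with a median of 0.00908. Among members with a mean of at least 1 CPM, BCL3 had the highest estimate at 0.42 (SE 0.26, edgeR adjusted p = 0.998) and read 33.0 and 26.4 CPM in WT cells with vehicle and 46.6 and 31.0 with SI-2, and 31.5 and 44.5 in BR cells with vehicle and 59.8 and 43.9 with SI-2. Its value rested on WT SI-2 replicates that differed: without replicate 1 the estimate was 0.74 and without replicate 2 it was 0.15. The BR SI-2 replicates differed too, with an estimate of 0.17 without replicate 1 and 0.62 without replicate 2. TRAF1 was the lowest at -0.58 (SE 0.32, edgeR adjusted p = 0.998), and -1.08 without BR SI-2 replicate 2 and -0.22 without BR SI-2 replicate 1. On the log2(FPKM + 1) scale it was -0.35.

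SI-2 was then compared with vehicle over both lines, to see whether inhibiting SRC-3 moved the pathway. The estimate was higher with SI-2 for 25 of 33 genes (75.8%, against 50.1% of all genes), and the median log2 difference was 0.0813 beside 0.000353 for all genes. No member was called by edgeR, DESeq2 or limma, and no gene at all by edgeR (0% of 13520). RELB and TNFAIP3 had an unadjusted p under 0.05, which was 6.06% of members against 2.22% of all genes. Without BR SI-2 replicate 2 the estimate was higher for 26 genes, and 1 had an unadjusted p under 0.05. Without BR vehicle replicate 2, 24 were higher and 8 had an unadjusted p under 0.05, so the number at that level depended on 1 vehicle library. The share of all genes at that level was not counted with a library left out, so the 8 cannot be set beside it.

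RELB (gene identifier 5971), the subunit of the noncanonical route, read 71.3 and 71.4 CPM in WT cells with vehicle and 115 and 92.0 with SI-2, and 71.9 and 104 in BR cells with vehicle and 128 and 105 with SI-2. The vehicle mean was 79.7 ± 16.4 CPM and the SI-2 mean 109.9 ± 15.2 (SD, n = 4 each). Of the vehicle libraries, 3 lay between 71.3 and 71.9 CPM, and BR vehicle replicate 2 lay above WT SI-2 replicate 2, so the groups overlapped. The difference was 1.38-fold, a log2 fold change of 0.46 (SE 0.15, unadjusted p = 0.0117, edgeR adjusted p = 0.999). Without BR vehicle replicate 2 it was 0.62, and the adjusted p over all alternatives ran from 0.654 to 1.

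TNFAIP3 (gene identifier 7128) showed the same arrangement of libraries. It read 312 and 305 CPM in WT cells with vehicle and 475 and 352 with SI-2, and 288 and 431 in BR cells with vehicle and 475 and 441 with SI-2. The means were 334 ± 65.3 CPM with vehicle and 436 ± 58.4 with SI-2. BR vehicle replicate 2 was again the high vehicle library and WT SI-2 replicate 2 the low SI-2 library. The difference was 1.30-fold, a log2 fold change of 0.38 (SE 0.15, unadjusted p = 0.0289, edgeR adjusted p = 0.999), and 0.53 without BR vehicle replicate 2. The lowest estimate was that of IKBKG at -0.20 (SE 0.14, edgeR adjusted p = 0.999), which read 47.8 and 37.9 CPM in WT cells with vehicle and 34.9 and 38.9 with SI-2, and 58.3 and 42.8 in BR cells with vehicle and 44.5 and 44.5 with SI-2. BR vehicle replicate 1 was its highest library, and without that library the estimate was -0.08.

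By role over both lines, every one of the 5 subunits, the 5 IkB family genes with BCL3, the 3 feedback inhibitors and the 6 TRAF and BIRC regulators had the higher estimate with SI-2. Their median log2 fold changes were 0.08, 0.19, 0.17 and 0.09. The 8 kinases split 4 and 4 and the 6 receptors, ligands and adaptor 2 and 4. Some estimates were small, as for REL (0.04, SE 0.20) and TRAF1 (0.03, SE 0.25). In WT cells alone the subunits split 3 and 2, and the TRAF and BIRC regulators 5 and 1. In BR cells alone these regulators also split 5 and 1. These are estimates of which none passed the adjusted threshold, and no member had its SI-2 libraries all above or all below its vehicle libraries, a pattern met in 0.666% of all genes for higher and 0.777% for lower. Of the 28 tested genes with a promoter window, the 14 that held the kB motif had a median SI-2 estimate of 0.14 on the log2 scale with 13 higher, and the 14 without it 0.04 with 8 higher. The split was not particular to SI-2. For BR against WT over 8 libraries the medians were 0.13 with 10 higher and -0.05 with 6 higher. Between replicate 2 and replicate 1, the set with the motif and the set without it had median log2 differences of 0.46 and 0.05 in the BR vehicle pair, -0.22 and -0.07 in the WT SI-2 pair, -0.03 and -0.13 in the WT vehicle pair and -0.01 and -0.19 in the BR SI-2 pair.

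**Figure D5:**
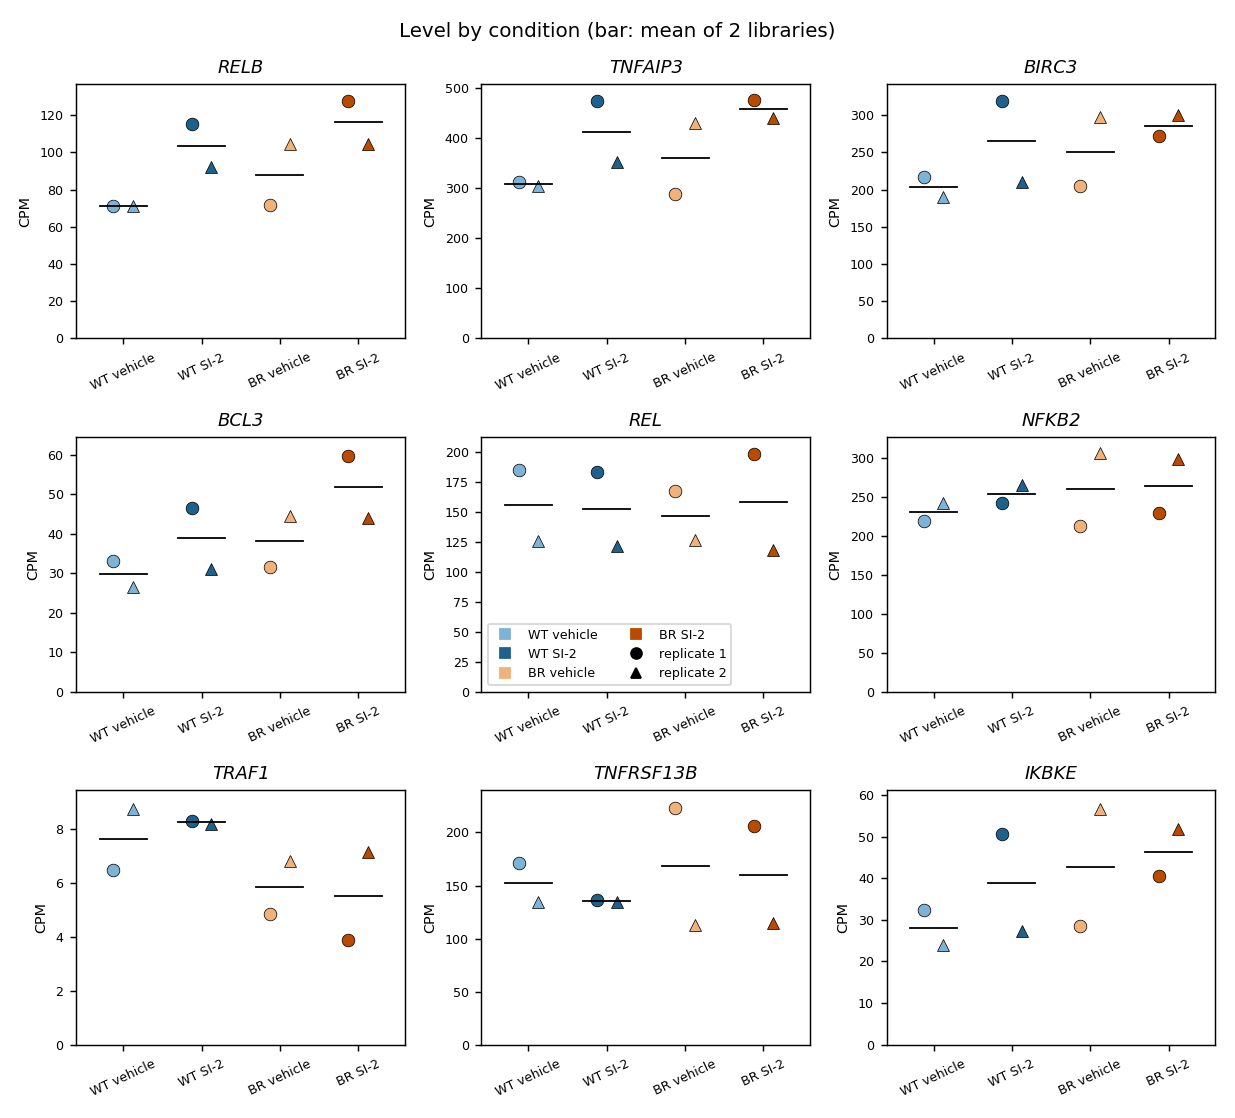
CPM of 9 genes by condition, with points for the libraries and bars for the mean of 2 libraries. RELB and TNFAIP3 are low in 3 of 4 vehicle libraries, REL and TNFRSF13B separate by replicate number, and TRAF1 is lowest in BR replicates numbered 1.

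Within each line the picture rested on 2 libraries against 2. In BR cells SI-2 gave the higher estimate for 24 of 33 genes (23 without BR SI-2 replicate 2). Without BR vehicle replicate 1, however, the split was 16 higher and 18 lower, with a median of -0.00976 on the log2 scale in place of 0.109. There were 0 members called by edgeR, DESeq2 and limma and 0 at an unadjusted p under 0.05, beside 0% and 1.2% of all genes. BCL3 had the highest estimate at 0.45 (SE 0.26, edgeR adjusted p = 1), and with 1 of the 4 BR libraries left out it ran from 0.20 without BR SI-2 replicate 1 to 0.71 without BR vehicle replicate 2, with 0.20 without BR vehicle replicate 1 and 0.65 without BR SI-2 replicate 2. TNFRSF13C had the lowest at -0.23 (SE 0.40, edgeR adjusted p = 1). It was -0.69 without BR SI-2 replicate 2 and -0.48 without BR vehicle replicate 1, and it turned to 0.10 without BR SI-2 replicate 1 and 0.05 without BR vehicle replicate 2. In WT cells SI-2 gave the higher estimate for 23 of 33 genes, with 0 members called by edgeR, DESeq2 and limma and 1 at an unadjusted p under 0.05, beside 0% and 0.533% of all genes. That gene was RELB at 0.54 (SE 0.21, unadjusted p = 0.0329, edgeR adjusted p = 1), with both SI-2 libraries above both vehicle libraries. At a mean of at least 1 CPM, TNFSF13B had the highest estimate at 0.75 (SE 0.45, edgeR adjusted p = 1) and MAP3K7 the lowest at -0.22 (SE 0.27, edgeR adjusted p = 1). TNFSF13B was at 0.39 without WT vehicle replicate 2, 0.42 without WT SI-2 replicate 1 and 1.24 without WT vehicle replicate 1, and at 0.20 on the log2(FPKM + 1) scale. The MAP3K7 estimate was -0.13 without WT SI-2 replicate 1. MAP3K7 read 46.7 and 49.9 CPM in WT cells with vehicle and 38.6 and 44.2 with SI-2, and 50.9 and 32.5 in BR cells with vehicle and 46.5 and 28.3 with SI-2.

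The difference between the SI-2 effects in BR and WT cells was tested as an interaction. Of the 33 genes, 16 had a larger estimate in BR cells and 17 in WT cells, also without BR SI-2 replicate 2. Leaving out 1 library moved this split to 11 and 23 without BR vehicle replicate 1 or WT vehicle replicate 1, to 25 and 9 without BR vehicle replicate 2 and to 22 and 12 without WT SI-2 replicate 1. No member was called by edgeR, DESeq2 or limma and 0 had an unadjusted p under 0.05, beside 0% and 0.533% of all genes. The extremes at a mean of at least 1 CPM were the sparse genes CD40 at 0.34 (SE 0.65, edgeR adjusted p = 1) and TNFSF13B at -0.82 (SE 0.62, edgeR adjusted p = 1). TNFSF13B ran from -1.32 without WT vehicle replicate 1 to -0.46 without WT vehicle replicate 2, with -0.49 without WT SI-2 replicate 1, and was -0.22 on the log2(FPKM + 1) scale. CD40 read 1.48 and 0.830 CPM in WT cells with vehicle and 1.59 and 0.778 with SI-2, and 0.848 and 0.955 in BR cells with vehicle and 1.15 and 1.20 with SI-2, and its interaction estimate ran from -0.15 without WT vehicle replicate 1 and -0.10 without WT SI-2 replicate 2 to 0.68 without WT vehicle replicate 2 and 0.94 without WT SI-2 replicate 1. On the log2(FPKM + 1) scale it was 0.16. Of the subunits that had no unadjusted p under 0.05 for line, treatment or number, NFKB1, which read 52.0 and 57.3 CPM in WT cells with vehicle and 60.7 and 56.1 with SI-2, and 58.9 and 63.2 in BR cells with vehicle and 63.6 and 61.1 with SI-2, varied by 1.22-fold over all 8 libraries. RELA varied by 1.19-fold and read 123 and 131 CPM in WT cells with vehicle and 118 and 136 with SI-2, and 117 and 118 in BR cells with vehicle and 139 and 123 with SI-2. Its lowest and highest libraries were BR vehicle replicate 1 and BR SI-2 replicate 1.

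Libraries with the same replicate number were also compared across conditions, 4 numbered 2 against 4 numbered 1. The labels do not say what a number stands for. Of the 33 genes, 14 were higher and 19 lower in replicate 2 (13 and 20 without BR SI-2 replicate 2), and 1 passed the adjusted threshold, beside 0.925% of all genes. The split depended on the scaling, with 22 higher and 11 lower under upper-quartile scaling, 19 and 14 under library size scaling and 21 and 12 by limma, and it was 21 and 12 without WT vehicle replicate 2, 20 and 13 without WT SI-2 replicate 1, 17 and 16 without WT SI-2 replicate 2 and 19 and 14 without BR SI-2 replicate 1. That 1 gene was REL (gene identifier 5966), which encodes c-Rel, the subunit most tied to lymphoid cells. It read 185 and 126 CPM in WT cells with vehicle and 183 and 121 with SI-2, and 167 and 126 in BR cells with vehicle and 199 and 118 with SI-2. Every library numbered 1 lay above every library numbered 2, whereas the means were 154 ± 35.3 CPM in WT and 153 ± 37.4 in BR cells, and 151 ± 30.04 with vehicle and 155 ± 41.6 with SI-2 (SD, n = 4 each). The log2 fold change of replicate 2 against replicate 1 was -0.58 (SE 0.08, edgeR adjusted p = 0.0334), larger in size than any member's BR against WT or SI-2 against vehicle estimate over 8 libraries. The call was lost when 7 of the 8 libraries were left out in turn, with adjusted p from 0.0612 to 0.109, and in a fit with condition terms (adjusted p = 0.0744), whereas the log2 fold change stayed between -0.61 and -0.50 in all alternatives. Without BR SI-2 replicate 2 it was -0.56.

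A further 6 genes had an unadjusted p under 0.05 by replicate number, so that 7 of 33 (21.2%) did, against 16.9% of all genes. TNFRSF13B, the TACI gene, read 171 and 134 CPM in WT cells with vehicle and 137 and 134 with SI-2, and 223 and 113 in BR cells with vehicle and 206 and 114 with SI-2. Its libraries numbered 1 all lay above those numbered 2, most widely in BR cells, with a log2 fold change of -0.57 (SE 0.15, edgeR adjusted p = 0.093). TNFRSF13C, the BAFF receptor, went the other way at 0.61 (SE 0.17, edgeR adjusted p = 0.107) and read 2.22 and 2.82 CPM in WT cells with vehicle and 1.87 and 3.28 with SI-2, and 2.09 and 3.02 in BR cells with vehicle and 1.59 and 2.76 with SI-2. Here too the numbers did not overlap.

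NFKB2 read 218 and 242 CPM in WT cells with vehicle and 242 and 265 with SI-2, and 212 and 306 in BR cells with vehicle and 229 and 298 with SI-2, with a log2 fold change of 0.30 by number (SE 0.10, edgeR adjusted p = 0.159). Within each condition replicate 2 was the higher. CHUK, the IkB kinase alpha gene used by the noncanonical route, read 60.4 and 50.8 CPM in WT cells with vehicle and 59.8 and 44.5 with SI-2, and 60.8 and 55.7 in BR cells with vehicle and 67.2 and 55.0 with SI-2. Its estimate was -0.27 (SE 0.10, edgeR adjusted p = 0.197), and its libraries numbered 1 were all above those numbered 2.

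BIRC2 read 78.6 and 62.6 CPM in WT cells with vehicle and 91.8 and 65.1 with SI-2, and 68.0 and 71.8 in BR cells with vehicle and 82.1 and 63.5 with SI-2, with an estimate of -0.28 (SE 0.10, edgeR adjusted p = 0.202). NFKBIZ, an inducible nuclear IkB, read 11.9 and 21.3 CPM in WT cells with vehicle and 16.5 and 18.2 with SI-2, and 14.0 and 16.5 in BR cells with vehicle and 16.3 and 18.4 with SI-2, with an estimate of 0.34 (SE 0.13, edgeR adjusted p = 0.224). WT vehicle replicate 1 was its lowest library and WT vehicle replicate 2 its highest. In all, TNFRSF13C was the 1 member whose libraries numbered 2 all lay higher (5.91% of all genes did), and CHUK, REL and TNFRSF13B the 3 whose libraries numbered 2 all lay lower (6.08%).

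A wider list of pathway genes was then counted. Of 56 other pathway genes, among them adaptors, ubiquitin ligases, Toll-like and TNF receptors, 49 were tested and 0 passed the adjusted threshold in any of the 8 comparisons by edgeR. Of all genes, 0% to 0.925% passed, depending on the comparison. For BR against WT over 8 libraries 21 were higher and 28 lower, with a median of -0.03 on the log2 scale. At an unadjusted p under 0.05 there were 4 of the 49, beside 14.4% of all genes. For SI-2 against vehicle 31 were higher and 18 lower, with a median of 0.01 and 1 at an unadjusted p under 0.05, beside 2.22% of all genes.

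Of 44 NF-kB target genes, 43 were in the table and 32 tested. The list was chosen with earlier results of these data known, so its calls are no independent comparison with the share of all genes. For BR against WT 19 had the higher and 13 the lower estimate in BR cells, with a median of 0.08 on the log2 scale and 10 at an unadjusted p under 0.05 (14.4% of all genes). One passed the adjusted threshold, beside 0.362% of all genes: CCL3, a chemokine, read 42.6 and 129.7 CPM in WT cells with vehicle and 62.8 and 124 with SI-2, and 6.84 and 18.04 in BR cells with vehicle and 16.6 and 17.3 with SI-2. All BR libraries lay below all WT libraries, and the log2 fold change was -2.61 (SE 0.39, edgeR adjusted p = 0.0183). CCL3 has near-identical copies, so its count is uncertain. The target counts were not repeated without BR SI-2 replicate 2, the library with the fibroblast transcripts. The target SOD2 read 95.8 CPM there and 39.1 to 53.2 in the other libraries. Its BR against WT log2 fold change was 0.58 (SE 0.21, edgeR adjusted p = 0.252). Among untested genes, PTGS2 had 20 counts there and 0 to 2 elsewhere, and IL1R1 of the wider list 84 and 5 to 9. For SI-2 against vehicle 0 targets passed by edgeR (0% of all genes), with 2 at an unadjusted p under 0.05 (2.22% of all genes). The estimate was higher for 23 and lower for 9, with a median of 0.10, and it was higher for 50.1% of all genes. By replicate number 10 targets had an unadjusted p under 0.05 (16.9% of all genes) and 2 passed the adjusted threshold, beside 0.925% of all genes, namely WNT10A, a Wnt ligand, at 0.90 (SE 0.14, edgeR adjusted p = 0.0375) and GCH1, the first enzyme of tetrahydrobiopterin synthesis, both higher in replicate 2, and the plasma cell marker CD38 passed at -0.68 (SE 0.11, edgeR adjusted p = 0.0375).

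The transcript table split the members' FPKM over 179 annotated transcripts. NFKBIA, NFKBIE, TNFRSF13B and TNFRSF13C each had 1 transcript, and RELA, BCL3 and BIRC3 had at least 90% of their FPKM in 1 transcript in every library. In 10 of the 29 genes with several transcripts and a level above 0 throughout, the share of the leading transcript varied by more than 30 percentage points between libraries. For TRAF2 the share of NM_021138.3 was 0% and 0% in WT cells with vehicle and 51.9% and 0% with SI-2, and 70.5% and 88.3% in BR cells with vehicle and 58.5% and 84.7% with SI-2. For TRAF3, whose product with TRAF2 and the cIAPs marks NIK for destruction, the share of NM_003300.3 was 42.6% and 0% in WT cells with vehicle and 23.9% and 66.2% with SI-2, and 54.8% and 0% in BR cells with vehicle and 48.9% and 5.16% with SI-2. The TRAF2 transcript was thus listed at 0 in 3 of 4 WT libraries and led in all BR libraries, while the TRAF3 transcript varied as much between replicates as between lines. Near-identical transcripts share most of their reads, and how the estimates divided those reads was not tested.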

How the data were processed

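RNA-seq libraries were made and sequenced on the BGISEQ-500 platform. The authors removed low-quality reads and deposited estimated counts and FPKM per gene and per transcript. BWA, Bowtie2, RSEM and the build hg19 are named in the submitters' processing notes without roles or versions. The deposited tables of comparisons hold the authors' own log2 fold changes, p-values and q-values and were not used. Estimated counts were rounded, filtered with filterByExpr, scaled by TMM and tested in edgeR 4.0.16 (R 4.3.3) by its quasi-likelihood F-test, with Benjamini-Hochberg adjustment over all genes tested. Comparisons over 8 libraries used 2 groups of 4 (13520 genes), and comparisons within a line or treatment used 1 fit over the 4 conditions (13896 genes). Each SE was worked back from the edgeR test, as the size of the log2 fold change divided by the square root of its F statistic. Alternatives were DESeq2 1.42.0, limma 3.58.1 on log2(FPKM + 1) and log2(FPKM + 0.1), other scalings and filters, condition terms, a replicate block and leaving out each library. The tests were checked on simulated data. Replicates were compared and none agreed within sampling noise (chi-square per degree of freedom 26.9 to 40.3).

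The genes and lists were chosen with earlier results of these data known. Every member is given by level; fold changes are given for members with an unadjusted p under 0.05 and for the highest and lowest estimate at a mean of at least 1 CPM. Groups came from the sample labels. Of the 34 members, 17 had whole counts in every library (to within 1e-06). Of the 18564 gene identifiers, 18267 were found in RefSeq, and all 34 members had the same symbol there. Promoter sequences are from RefSeq, build GRCh38.p14, and no coordinates were taken from hg19. Depth limits the precision of sparse genes, and floors of 3 counts cover counting error only.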

Additional observations from a re-analysis of the deposited data

Results flagged for a closer look

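Within each line and each treatment, the 4 libraries were searched for 1 that stood apart from the other 3 by Dixon's ratio at its critical value for 4 values, for the 34 genes and the 3 fibroblast markers. Chance alone gives about 1 in 20 groups, and 19 of 148 were found, 12 of them in the 136 groups of pathway genes. These counts cannot be set against that share: the markers were already seen to stand apart in 1 library, the LTBR groups rest on libraries at 0, and each gene enters 4 groups that share libraries. Values are in CPM.

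BR SI-2 replicate 2 was the library standing apart in 8 of the 19 groups. COL1A1 was 53.7 there against 0.113 to 0.265 in the other BR and 0.111 to 0.275 in the other SI-2 libraries, COL3A1 was 51.9 against at most 0.283 in the other BR and 0.164 in the other SI-2 libraries, DCN was 7.44 against at most 0.0565, and LTBR was 1.14 against 0. Their part in the other members' values was not tested. WT vehicle replicate 1 held the single LTBR count of the WT and of the vehicle libraries (0.0569), and WT vehicle replicate 2 the single DCN count of the WT libraries (0.0553).

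Among vehicle libraries, BR vehicle replicate 2 stood above the others for RELB (104 against 71.3 to 71.9) and TNFAIP3 (431 against 288 to 312), and WT vehicle replicate 2 for RIPK1 (38.0 against 25.8 to 27.4). Among BR libraries, BR vehicle replicate 1 was low for TNIP1 (191 against 228 to 230.1) and high for IKBKG (58.3 against 42.8 to 44.5). Among WT libraries, WT SI-2 replicate 1 was high for CYLD (134 against 104 to 109), and WT vehicle replicate 1 was low for IKBKB (74.1 against 89.7 to 92.3) and high for TNFRSF13B (171 against 134 to 137). No SI-2 effect of a member differed between BR and WT cells past the adjusted threshold.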

How the results depend on the processing

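No pathway gene was called in the BR against WT, SI-2 or interaction comparisons under any alternative run. By replicate number the count was 1 in the main fit, 2 with DESeq2, 0 with condition terms and 0 to 2 with each library left out in turn: 2 without WT SI-2 replicate 1, and 0 without each of the other 7. Estimates that changed sign were those of TNFRSF13C for SI-2 in BR cells (-0.69 to 0.10 with each library left out, positive without BR vehicle replicate 2 or BR SI-2 replicate 1) and CD40 for the interaction (-0.15 to 0.94, negative without WT vehicle replicate 1 or WT SI-2 replicate 2). The causes were not tested. Of 384 alternative values of single genes, 370 kept direction and side of the threshold, 8 fell short of it, 2 came to pass it and 4 changed sign. Over all genes, BR against WT over 8 libraries called 49 by edgeR, 399 by DESeq2, 155 with the replicate block and 21 to 125 with each library left out. The comparison by replicate number called 125, 740 by DESeq2, 0 with condition terms, 196 with upper-quartile scaling, 62 and 56 by limma at pseudocounts of 1 and 0.1, and 0 to 93 with each library left out.

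Same-numbered libraries deviated together most within a line, with a Pearson r of 0.509 between the WT conditions and 0.443 between the BR conditions. Between lines it ran from -0.179 to 0.207. The labels name no shared batch, so the numbers were not taken as pairing. The replicate block fits a difference by number that both lines share, and pairing within a line was not tested. With the replicate block 0 members were called for BR against WT and for SI-2 against vehicle, and TRAF1 and RELB had log2 fold changes of -0.51 and 0.46. With 2 libraries a condition and a biological coefficient of variation of 0.179, small differences could not be resolved.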
